A study of Homo sapiens with 18 samples.

Results

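The promoters of 7 DNA repair genes, MSH3, MSH6, PMS2, MGMT, BRCA1, FANCF and WRN, were examined out of 20136 protein-coding genes annotated on GRCh37. The genes were listed by name, and all 7 were found in the annotation. A promoter was taken as the 1000 bp on either side of the gene's 5′ end, as given by the gene record. For MSH6 and BRCA1 the 5′ end of the canonical transcript lay far downstream of the gene record, by 87615 and 44881 bp, and its window is given as well.

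Genomic DNA came from 3 established human cell lines, the colorectal carcinoma line HCT15 and the prostate cancer lines DU145 and PC3, grown in ATCC complete medium and given no named treatment. Each line was assayed by reduced representation bisulphite sequencing (RRBS), which counts methylated and unmethylated reads at single CpGs. Each line was also captured with 5 kits, MethylMagnet, MethylCollector, MethylCollector Ultra, MethylCap and MethylMiner, in which a methyl-binding domain (MBD) protein pulls down methylated fragments for sequencing. The study compared the kits and used RRBS as one of its benchmarks. Every combination had 1 library, so no group has a replicate, all 3 lines are tumour lines, and each test below compares libraries rather than replicate cultures.

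Most promoters of housekeeping repair genes are CpG islands, which usually carry little methylation. Dense methylation of such an island is known to go with silencing of the gene, and several repair genes are known to be silenced in this way in tumours. MSH6 and MSH3 are partners of the dimers that recognise mismatched or looped bases, and PMS2 belongs to the complex that acts after recognition. MGMT removes alkyl groups directly from guanine. BRCA1 acts in homologous recombination, FANCF is an adaptor in the Fanconi anaemia core complex that responds to DNA crosslinks, and WRN is a RecQ helicase. No RNA was measured, so the values below are of methylation only.

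The RRBS libraries held 2195724 CpGs with at least 10 reads in HCT15, 2398973 in DU145 and 2377143 in PC3, at median coverages of 23, 33 and 26 reads. The MBD libraries held between 10040 fragments (DU145, MethylMagnet) and 7344098 (HCT15, MethylMiner). Their labels were checked at CpGs at least 90% methylated in 1 cell line and at most 10% in the other two. In 12 of 15 MBD libraries the set of the named line was covered most, and the 3 others were the MethylMiner libraries. These covered the 3 sets at 58.8 to 63.5% (HCT15), 36.1 to 42.8% (DU145) and 28.2 to 41.7% (PC3). Their labels could not be checked in this way. The paper describes the RRBS profile of this kit as close to the background. Sums over kits and fragment positions below leave MethylMiner out, and the capture test is given with and without it. CpGs inside CCGG or TCGA, the recognition sequences of the enzymes MspI and TaqI, stood apart in the RRBS data. At these sites only 1.04 to 2.88% of CpGs were methylated at 10% or less in any of the 3 libraries, against 18.4 to 44.5% in the other 14 sequence contexts. The sites of the 7 promoters pooled to between 46.8 and 61.3% in all 21 combinations of gene and cell line, and the cause was not tested. Levels are therefore given over all CpGs, the planned measure, and over the CpGs outside these sites, a measure added after the data had been seen.

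Over all CpGs, 5 of the 7 promoters pooled to 25.2% or less in the 3 lines, and MGMT and WRN reached higher levels in HCT15. The pooled level is the share of methylated reads among all reads of the window's CpGs. Only WRN in HCT15 reached 50%, a level reached by 25.7% of 14246 promoters in that line, 17.6% of 14159 in DU145 and 16.3% of 13553 in PC3. The median promoter was at 15.4% in HCT15, 14.8% in DU145 and 14.9% in PC3. Outside the recognition sites these medians were 1.82%, 2.02% and 2.18%. MSH3, MSH6, PMS2, BRCA1 and FANCF then pooled to between 0.409 and 8.33%, with 472 of their 503 CpG values at 10% or less and 20 at 25% or more. At their recognition sites 134 of 140 values were at 25% or more.

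**Figure D1:**
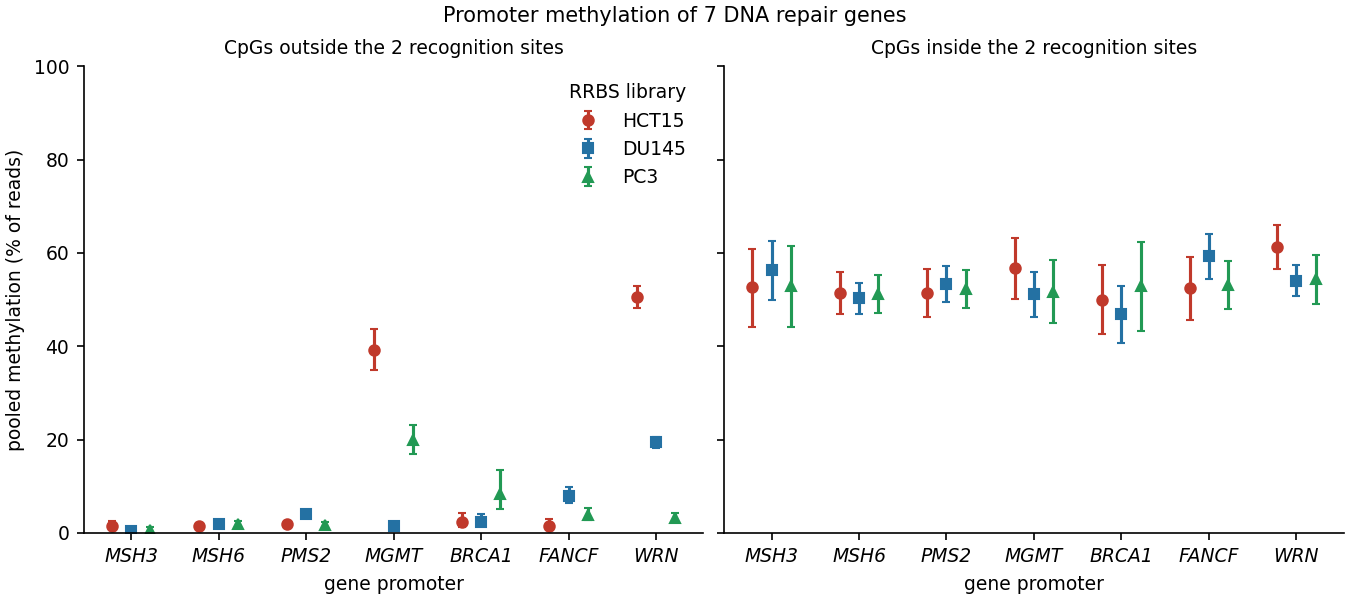
Pooled RRBS methylation in percent (vertical axis) of each repair gene promoter in the 3 cell lines, over CpGs outside and, in a separate panel, CpGs inside CCGG and TCGA, with Wilson 95% intervals for counting error. MSH6 is shown around its canonical 5′ end. Outside these sites only MGMT in HCT15 (39.2%) and PC3 (19.8%) and WRN in HCT15 (50.6%) and DU145 (19.4%) stand above the rest.

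Among the mismatch repair genes, MSH3 had the lowest levels of all. Its 5′ end lies at chr5:79950471 on the plus strand. The window held 108 CpGs, of which the same number, 30, passed in each line. HCT15 pooled to 7.37% (Wilson 95% interval 6.01 to 9.01), DU145 to 5.30% (4.51 to 6.21) and PC3 to 6.43% (5.12 to 8.05). All 25 CpGs outside the recognition sites were at 10% or less in each of the 3 lines, and the highest single CpG was at 7.69%, in PC3. The Wilson intervals cover counting error only. They are also too narrow, since reads were not independent: at CpGs with 10 to 90% methylation, the methylated count was even for 70.9 to 73.4% of CpGs with an even total, and for 49.9 to 52.0% of those with an odd total.

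The window at the MSH6 gene record, chr2:47922669 on the plus strand, held 37 CpGs in the genome and none with 10 RRBS reads, so it gave no level. Around the canonical 5′ end at chr2:48010284, with 173 CpGs, HCT15 stood at 10.3% (69 CpGs), DU145 at 9.82% (96) and PC3 at 11.0% (88). Without the recognition sites these levels were 1.57%, 1.83% and 1.98%. A short stretch at the upstream edge, inside longer MSH6 transcripts and in no exon, was an exception. Its 3 measured CpGs, 909 to 845 bp before the canonical 5′ end, pooled to 22.2% of 54 reads in HCT15 and 72.9% of 48 reads in DU145, against 2.78% of 72 reads in PC3. This sequence is repeated in the genome: 668 other places aligned to it over at least 200 bp at 90% identity or more.

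PMS2 starts at chr7:6048761 on the minus strand, and AIMP2, which encodes a scaffold protein of the tRNA synthetase complex, starts 125 bp upstream on the opposite strand. HCT15 stood at 10.6% (59 CpGs), DU145 at 13.4% (51) and PC3 at 11.2% (57). Without the recognition sites these levels were 1.80%, 4.09% and 1.65%. The higher CpGs again lay in a short stretch away from the 5′ end, 595 to 546 bp upstream, in an intron of AIMP2. The stretch pooled to 38.9% in HCT15 over 2 CpGs, 44.2% in DU145 over 6 and 92.9% in PC3 over 2. At least 200 bp around it aligned to 94 other places at 90% identity or more. The longest other alignment of the PMS2 window ran from 194 bp before to 941 bp after the 5′ end and matched chr7:74306635-74307771 at 90.2% over 1153 bp, so reads of this window can be harder to place.

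Between cell lines, none of the mismatch repair promoters differed by 25 percentage points over the CpGs shared by a pair. Their differences ranged from −1.31 points for PMS2 to 2.07 points for MSH3 between HCT15 and DU145. CpGs were compared one by one with a two-sided Fisher's exact test, adjusted by Benjamini-Hochberg over all CpGs of the pair, and called at an adjusted p under 0.05 and a difference of at least 25 points. Of the promoter CpGs outside the recognition sites, 15.5% were called between HCT15 and DU145, 15.6% between HCT15 and PC3, and 10.3% between DU145 and PC3. MSH3 had no called CpG in any pair, with 1 of 30 at an adjusted p under 0.05 by Fisher's exact test between HCT15 and DU145 and none in the other pairs. MSH6 had 2 of 54, 1 of 55 and 3 of 71 called, all in this upstream stretch. There the CpG at −909 had 8 of 18 reads methylated in HCT15, 15 of 16 in DU145 and 1 of 24 in PC3, with an adjusted p of 1.21e-07 by Fisher's exact test between DU145 and PC3. PMS2 had none of 34 called between HCT15 and DU145, where its lowest adjusted p over all CpGs was 0.0509 by Fisher's exact test, and 1 called in each pair with PC3, at −586, with 4 of 18 reads methylated in HCT15, 28 of 52 in DU145 and 14 of 14 in PC3.

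MGMT, the direct reversal gene, was methylated in HCT15, nearly free of methylation in DU145, and mixed in PC3. Its 5′ end is at chr10:131265454 on the plus strand, with no other gene starting in the window, and the canonical transcript starts 51 bp further on. Outside the recognition sites, the CpGs that carried most reads lie 188 to 255 bp after the 5′ end, in the first intron. A distal stretch with fewer reads lies 320 to 356 bp after the 5′ end. Both stretches are printed on the plus strand, GRCh37, with CpGs in capitals, from chr10:131265640-131265712 and chr10:131265772-131265813, because the lines differed most clearly there. Another run, from chr10:131265000-131265030, marks the upstream CpGs described with the capture data below.
MGMT intron 1: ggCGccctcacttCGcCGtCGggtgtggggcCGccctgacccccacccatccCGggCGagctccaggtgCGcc
MGMT intron 1, distal: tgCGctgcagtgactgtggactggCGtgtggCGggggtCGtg
MGMT upstream: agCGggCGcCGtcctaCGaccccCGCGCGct

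Over all CpGs of MGMT, HCT15 pooled to 44.8% (17 CpGs, Wilson 95% interval 41.2 to 48.5), DU145 to 14.2% (29 CpGs, 12.5 to 16.0) and PC3 to 27.5% (30 CpGs, 24.6 to 30.6). As a mean over CpGs with its SD, it was 48.3% ± 19.5 (n = 17 CpGs), 11.7% ± 21.0 (n = 29) and 27.7% ± 30.1 (n = 30). Leaving out the recognition sites gave 39.2% for HCT15, 1.51% for DU145 and 19.8% for PC3. All 11 such CpGs of HCT15 were at 25% or more, and all 23 of DU145 were at 10% or less. These are not the same sets, as 11 CpGs passed in both lines, where HCT15 pooled to 39.2% and DU145 to 1.68%. How many other promoters separate in this way was not counted. In PC3, 13 of 23 were at 10% or less and 5 at 25% or more.

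By position, the 7 CpGs of the first stretch pooled to 35.3% in HCT15 (385 reads, single CpGs 30.8 to 45.7%), 1.63% in DU145 (859 reads, 0 to 5.00%) and 21.0% in PC3 (352 reads, 3.12 to 44.4%). The stretch was thus partly methylated throughout in HCT15 and uneven in PC3. In the distal stretch HCT15 was at 55.3% over 4 CpGs (94 reads) and DU145 at 2.13% over 4 (94 reads). PC3 reached 92.9% there, at 3 CpGs with 13 of the same number of 14 reads methylated at each. Around exon 1, 40 to 126 bp after the 5′ end, DU145 was at 0.833% over 12 CpGs and PC3 at 6.51% over 13. No HCT15 CpG reached 10 reads there, and the 12 with 8 or 9 reads stood at 43.9%. PC3 was thus low near exon 1 and high in the distal stretch.

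**Figure D2:**
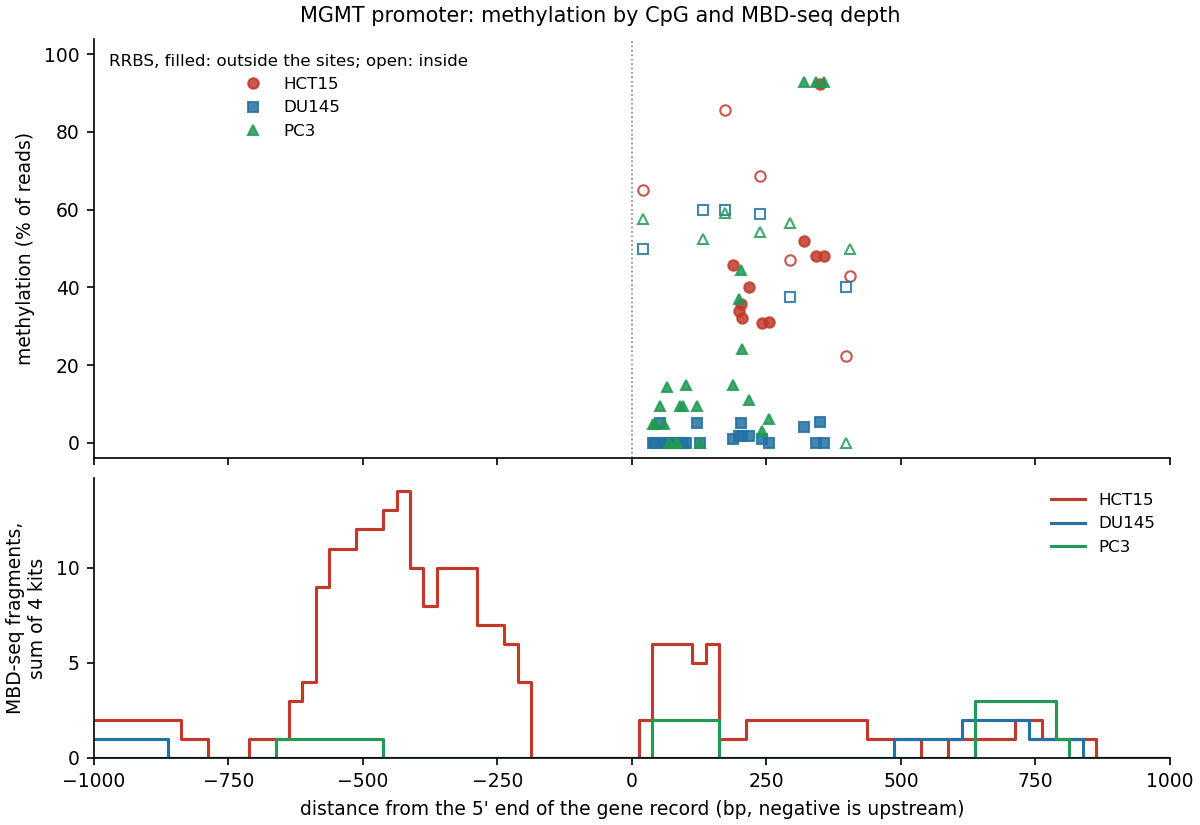
Methylation in percent of each MGMT CpG with at least 10 reads against its distance from the 5′ end in bp, for each cell line, with CpGs in CCGG or TCGA marked apart and MBD depth shown over the same window. The HCT15 CpGs of the first stretch lie between 30.8 and 45.7% and those of DU145 between 0 and 5.00%.

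MGMT differed by 29.0 points between HCT15 and DU145 over 16 shared CpGs (44.8 against 15.9%), past the 25 points called. This call was made for 12.5% of 13691 promoters with HCT15 higher, and the 6 repair promoters with a level at the gene record gave 2 such calls, MGMT and WRN. MGMT was 7.86 points higher in HCT15 than in PC3 and 13.2 points lower in DU145 than in PC3 (a difference of −13.2), neither of which was called. By Fisher's exact test, 11 of 11 CpGs outside the recognition sites were called between HCT15 and DU145, all higher in HCT15, with adjusted p from 2.36e-13 to 0.0014. Among promoter CpGs outside these sites, 13.5% were called with HCT15 higher in this pair. Between HCT15 and PC3, 5 of 10 were called by Fisher's exact test, 3 higher in HCT15 (+188, +217 and +242) and 2 higher in PC3 (+342 and +356), with adjusted p from 0.00678 to 0.0386. Between DU145 and PC3, 5 of 22 were called by Fisher's exact test, all higher in PC3, with adjusted p from 1.25e-08 to 4.2e-07. With PC3 higher, 4.52% of promoter CpGs outside the sites were called in that pair. The direction of the calls between HCT15 and PC3 thus turned between +242 and +342, within the same intron, but on few reads. The 2 CpGs higher in PC3 had 14 PC3 reads each. They could not be tested where 20 reads were required in both libraries, a setting that called 3 of 11 CpGs. With the reads of every CpG halved, 0 of 16 were called in this pair.

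BRCA1 was low in the 3 lines at the CpGs measured, which were few. The gene record starts at chr17:41322262 on the minus strand, 236 bp from the start of NBR1, an autophagy receptor gene, on the opposite strand. The canonical transcript starts at chr17:41277381, 187 bp from the noncoding gene NBR2. At the gene record HCT15 stood at 16.0% (30 CpGs), DU145 at 16.5% (20) and PC3 at 25.2% (8). Without the recognition sites these levels were 2.37%, 2.39% and 8.33%, the last over 5 CpGs. At the canonical 5′ end it was 20.4%, 16.3% and 22.2% over 10, 12 and 10 CpGs, and outside the sites 0%, 1.36% and 2.42% over 5, 8 and 5. In HCT15 and PC3 the canonical window's CpGs all lay 458 to 968 bp downstream. The 8 of PC3 at the gene record lay 783 to 916 bp downstream, so these values do not give the level at the start itself. The canonical window from 374 to 1000 bp downstream also matched chr17:41320819-41321431 at 91.1% over 632 bp. None of 12 CpGs outside the sites was called between HCT15 and DU145 and none of 3 between HCT15 and PC3 at the gene record, and none of these CpGs had an adjusted p under 0.05 by Fisher's exact test. Between DU145 and PC3, 1 of 5 was called, at +875, with 0 of 14 reads methylated in DU145 and 6 of 12 in PC3 (adjusted p 0.0242, Fisher's exact test). This CpG is in no exon, and 7 other places in the genome aligned to it over at least 200 bp at 90% identity or more.

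FANCF was low from 255 to 425 bp after its 5′ end and methylated further into its single exon in DU145. Its 5′ end is at chr11:22647369 on the minus strand, and GAS2, a gene of the cytoskeleton, starts 314 bp downstream on the opposite strand. Both printed runs lie in the coding part of the exon, at chr11:22647053-22647126 and chr11:22646583-22646625, GRCh37, minus strand. In the proximal run capitals mark the 2 CCGG sites, and in the distal run they mark CpGs.
FANCF coding, proximal: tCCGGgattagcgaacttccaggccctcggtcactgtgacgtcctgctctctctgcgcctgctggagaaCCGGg
FANCF coding, distal: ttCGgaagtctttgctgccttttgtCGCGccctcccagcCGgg

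For FANCF, HCT15 stood at 17.1% (22 CpGs), DU145 at 22.3% (20) and PC3 at 18.0% (33). Without the recognition sites these levels were 1.49%, 7.98% and 3.75%. Upstream and less than 255 bp after the 5′ end, only PC3 had CpGs outside the sites with at least 10 reads. The HCT15 and DU145 values therefore do not give the level at the start itself. From 255 to 425 bp after the 5′ end, 10 CpGs outside the sites pooled to 1.36% for HCT15, 3.39% for DU145 and 3.07% for PC3, and no single CpG exceeded 8.00%. The distal run differed: its 3 CpGs outside the site, at +747, +770 and +772, pooled to 84.2% in DU145 (19 reads each), 3.33% in HCT15 (10 reads each) and 15.2% in PC3 (22 reads each). DU145 was the only line with these CpGs mostly methylated. By Fisher's exact test these 3 of 13 CpGs were called between DU145 and HCT15, with adjusted p from 8.35e-06 to 0.00911, and the same 3 of 13 between DU145 and PC3, with adjusted p from 2.02e-06 to 0.000855. Of promoter CpGs outside the sites, 2.0% were called with DU145 higher than HCT15 and 5.74% with DU145 higher than PC3. None of the HCT15 and PC3 CpGs outside the sites was called against each other. The 19 and 10 reads behind these values limit them, and as DU145 had under 20 reads at each of these CpGs, none of them could be tested where 20 reads were required in both libraries.

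**Figure D3:**
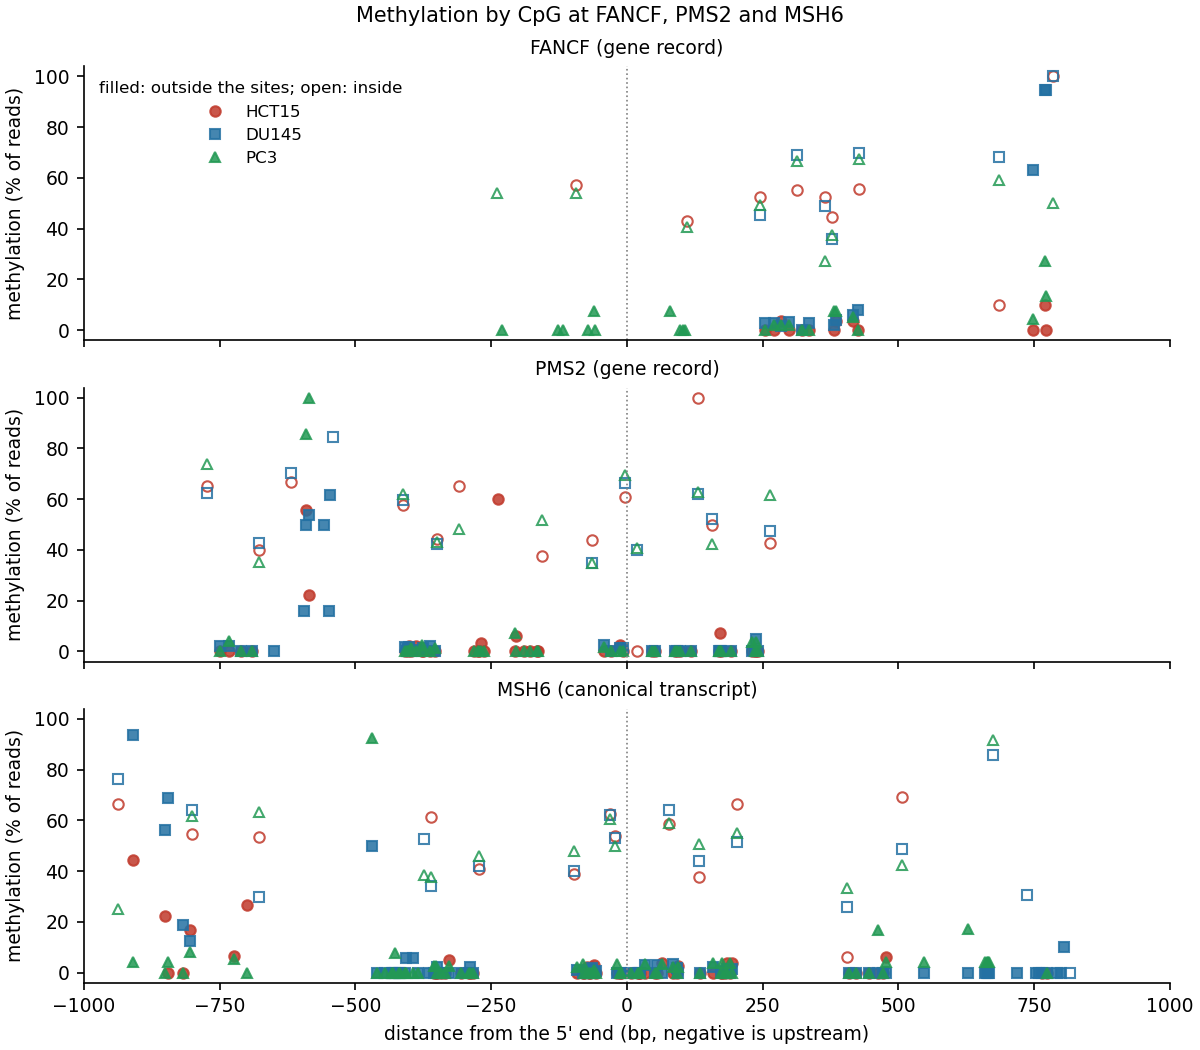
Methylation in percent of each CpG with at least 10 reads against its distance from the 5′ end in bp, for FANCF, PMS2 and MSH6 (canonical 5′ end) in the 3 cell lines, with CpGs in CCGG or TCGA marked apart. The DU145 CpGs of FANCF near +770 reach 94.7%.

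WRN had the widest range between the cell lines, and all of it lay upstream of the 5′ end. Its 5′ end is at chr8:30891304 on the plus strand, and PURG, a gene of the PUR family of nucleic acid-binding proteins, starts 73 bp upstream on the opposite strand. The upstream CpGs therefore lie in the body of PURG. HCT15 pooled to 52.7% (56 CpGs, Wilson 95% interval 50.5 to 54.9), DU145 to 25.4% (48 CpGs, 24.2 to 26.6) and PC3 to 11.8% (40 CpGs, 10.5 to 13.3). As a mean over CpGs with its SD, it was 51.4% ± 40.6 (n = 56 CpGs), 19.5% ± 25 (n = 48) and 14.6% ± 24.6 (n = 40). Without the recognition sites the pooled levels were 50.6%, 19.4% and 3.20%.

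The window fell into 3 zones. In the farthest stretch, 779 to 742 bp upstream in an exon of PURG, 11 CpGs outside the sites pooled to 77.0% in HCT15 (666 reads), 35.8% in DU145 (2220 reads) and 4.66% in PC3 (901 reads). From 544 to 360 bp upstream, HCT15 stood at 85.4% over 16 CpGs (350 reads), while DU145 was at 0.342% over 16 (878 reads) and PC3 at 2.13% over 13 (376 reads). From 324 bp upstream to 220 bp downstream, around the starts of both genes, HCT15 fell to 1.32% over 17 CpGs, with DU145 at 0.482% over 11 and PC3 at 0.792% over 7. In HCT15 the level thus dropped from mostly methylated to nearly unmethylated between −360 and −324, DU145 was partly methylated only in the farthest stretch, and PC3 was low throughout.

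**Figure D4:**
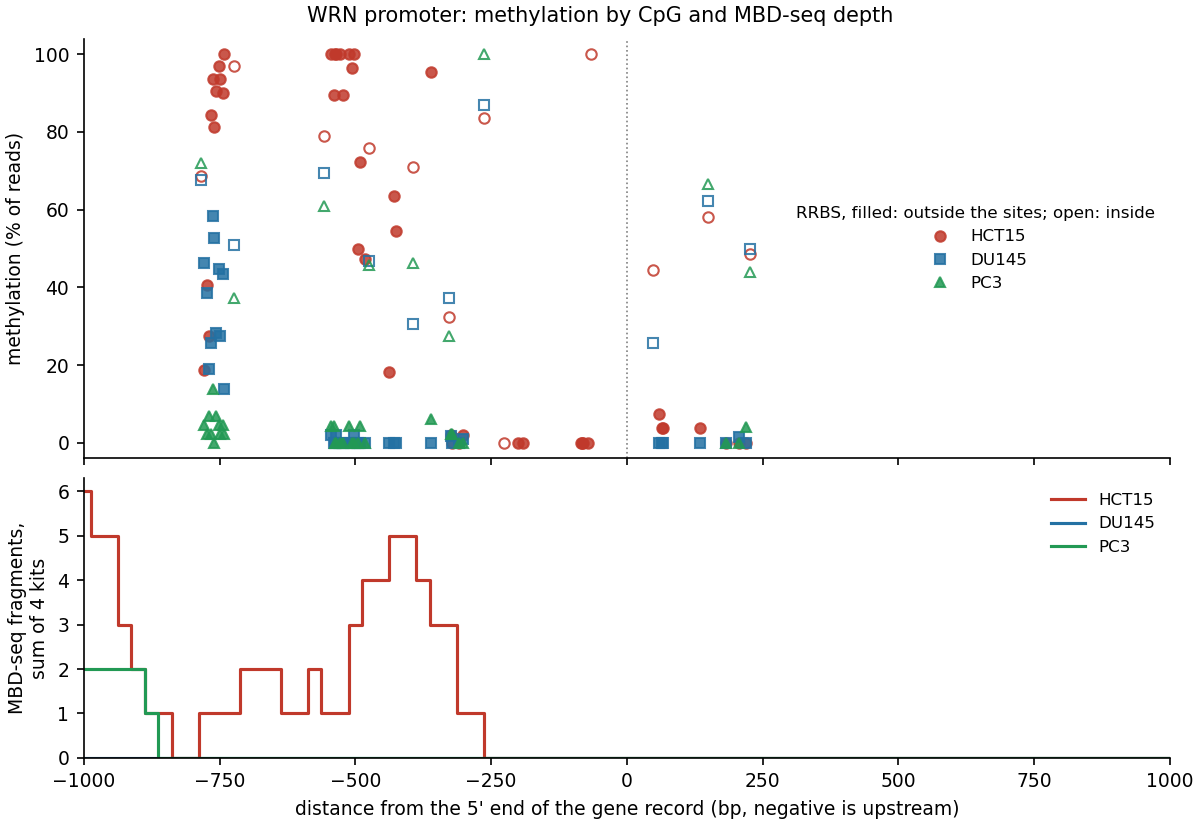
Methylation in percent of each WRN CpG with at least 10 reads against its distance from the 5′ end in bp, for each cell line, with CpGs in CCGG or TCGA marked apart and MBD depth shown over the same window. HCT15 pools to 85.4% between −544 and −360 and to 1.32% between −324 and +220.

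WRN was called in both comparisons of HCT15: 29.1 points higher than DU145 over 48 shared CpGs (54.5 against 25.4%), and 46.0 points higher than PC3 over 40 (57.9 against 11.8%). Against PC3 the same call, with HCT15 higher, was made for 12.7% of 13114 promoters. DU145 exceeded PC3 by 14.5 points, which was not called. The calls rest on the upstream zones: within 500 bp of the 5′ end the differences were 11.4 and 11.2 points, and with at least 20 reads per CpG the difference from DU145 was 23.8 points. By Fisher's exact test, 24 of 38 CpGs outside the sites were called between HCT15 and DU145, 23 of them higher in HCT15, with adjusted p from 7.52e-38 to 0.043. The exception, at −779, had 6 of 32 reads methylated in HCT15 and 49 of 106 in DU145. Between HCT15 and PC3, 22 of 31 were called, all higher in HCT15, with adjusted p from 6.17e-38 to 0.00198 by Fisher's exact test. Between DU145 and PC3, 7 of 31 were called by Fisher's exact test, all higher in DU145 and all between −779 and −744, with adjusted p from 2.78e-20 to 4.15e-06.

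Across all CpGs of the 7 promoters, recognition sites included, 41 of 177 tested were called between HCT15 and DU145 (23.2%), 31 of 171 between HCT15 and PC3 (18.1%), and 19 of 170 between DU145 and PC3 (11.2%), with MSH6 taken from its gene record window and so giving none. In its canonical window MSH6 had 2 of 67, 1 of 68 and 4 of 86 called in these pairs. Counting that window instead would lower each of the 3 shares, so they are not read as an excess over all promoters. Among all CpGs in promoter windows 14.5%, 14.6% and 9.74% were called in these pairs. CpGs of 1 promoter are neighbours and not independent. Where the reads of every CpG were halved, an alternative added after the data had been seen because of the even counts, the calls were 32, 22 and 15.

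The capture libraries gave few fragments at these promoters. In the 12 libraries of the 4 kits other than MethylMiner, between 3.46% (DU145, MethylMagnet) and 72.8% (HCT15, MethylCap) of all promoters had a fragment, and 12.6% had none in any of the 12. In the order MethylMagnet, MethylCollector, MethylCollector Ultra, MethylCap and MethylMiner, MGMT had 2, 7, 5, 21 and 13 fragments in HCT15, 0, 0, 0, 3 and 5 in DU145, and 1, 1, 2, 2 and 0 in PC3. Counted per 1000000 fragments of the library, HCT15 ran from 33.3 in MethylMagnet to 1.77 in MethylMiner, where DU145 was at 1.69. The 3 kits with no DU145 fragment at MGMT had 10040 to 30336 fragments in that line, so a count of 0 there allows up to 98.9 to 298.8 fragments per 1000000 and no order can be read. In MethylCap the values were 5.40 per 1000000 in HCT15, 3.64 in DU145 and 2.10 in PC3.

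WRN had 1, 5, 2, 5 and 8 fragments in HCT15, 0, 0, 0, 0 and 3 in DU145, and 0, 0, 2, 0 and 4 in PC3. At these counts no order of the lines can be read within a kit. Most other promoters were nearly empty outside MethylMiner: MSH3 and FANCF had 0 fragments in all 12 libraries of the other 4 kits, and PMS2 and BRCA1 had 1 each. The window at the MSH6 gene record, where RRBS gave no level, had 0, 1, 2, 11 and 13 fragments in HCT15, and the canonical window 0, 0, 0, 5 and 10.

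Summed over the 4 kits without MethylMiner, MGMT held 9.38 times the fragments that uniform placement over the genome would give in HCT15 (35 fragments, exact Poisson 95% interval 6.53 to 13.0). The ratio was 4.41 in DU145 (3 fragments, 0.910 to 12.9) and 4.23 in PC3 (6 fragments, 1.55 to 9.22), and the intervals of the 3 lines overlapped. The mean over all promoters, counted in the same way, was 2.85 in HCT15, 2.16 in DU145 and 2.66 in PC3. WRN was at 3.48 in HCT15 (13 fragments, 1.85 to 5.96) and 1.41 in PC3 (2 fragments, 0.171 to 5.10). DU145 had no WRN fragment, and a count of 0 over the 4 kits allows a ratio of up to 4.41, that of 3 fragments. The WRN intervals thus include the mean of all promoters. At the MSH6 gene record the ratio was 3.75 in HCT15 (14 fragments, 2.05 to 6.29), close to that of WRN. There it was 2.94 in DU145 (2 fragments, 0.356 to 10.6) and 1.41 in PC3 (2 fragments, 0.171 to 5.10). The MSH6 intervals include the mean of all promoters too. These intervals cover counting error only.

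Differences between the cell lines were tested over the 15 MBD libraries by a two-sided exact permutation of the cell lines within kits, on log2 of fragments over the uniform expectation, each plus 0.5. There are 7776 relabellings and the smallest p they can give is 0.000772. The unadjusted exact permutation p was 0.0463 for MGMT, 0.0486 for WRN, 0.0409 for FANCF and 0.0594 for MSH6. The mean log2 ratio over the kits was 2.37 ± 0.82 in HCT15 (SD, n = 5), 0.50 ± 0.78 in DU145 and 0.58 ± 1.49 in PC3 for MGMT, and 1.38 ± 0.98, −0.19 ± 0.57 and 0.12 ± 1.12 for WRN. For FANCF the order ran the other way, at −0.91 ± 1.11 in HCT15, −0.12 ± 0.67 in DU145 and −0.66 ± 0.44 in PC3, values set by library size where fragments were 0. After Benjamini-Hochberg adjustment over 20136 promoters the permutation p was 0.242 for MGMT, 0.246 for WRN, 0.233 for FANCF and 0.265 for MSH6. Without MethylMiner the mean log2 ratio over 4 kits was 2.67 ± 0.53 in HCT15, 0.37 ± 0.84 in DU145 and 1.24 ± 0.20 in PC3 for MGMT, and 1.60 ± 0.98, −0.33 ± 0.56 and −0.13 ± 1.13 for WRN. The unadjusted exact permutation p was then 0.00926 for MGMT, 0.0231 for MSH6, 0.0741 for WRN and 0.0833 for FANCF, each 0.218 after adjustment. Over the 5 kits no promoter was called by this exact permutation test (0.0%), and 19.9% had an unadjusted p under 0.05. A call at the smallest p over the 5 kits would need 311 promoters at it, against 52 there, so this test had little room to call any promoter. The capture data at this depth therefore called no difference at the repair promoters, which does not show that there is none.

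The position of the captured fragments was compared with the RRBS levels, in the 4 kits without MethylMiner. At WRN in HCT15, 10 fragments reached into the farthest 500 bp upstream, 5 into the 500 bp next to the 5′ end, and none into the 1000 bp downstream. Their depth peaked at 6 fragments at the window's upstream edge, beyond the farthest measured CpG at −779. Of the 25 HCT15 CpGs at 25% or more, outside the recognition sites, 1 MethylMagnet fragment covered 14. Fragments of MethylCollector covered 4, MethylCollector Ultra 8 and MethylCap 16. Of the 17 at 10% or less these kits covered 0, 4, 0 and 2. MethylMiner fragments covered 0 of 25 and 11 of 17.

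At MGMT in HCT15, 15 fragments reached into the farthest 500 bp upstream, 21 into the next 500 bp, and 9 and 3 into the successive 500 bp downstream, a fragment across a border being counted on both sides. Their depth peaked at 14 fragments, 425 bp upstream, whereas the RRBS CpGs with at least 10 reads all lay downstream of the 5′ end. The 11 HCT15 CpGs at 25% or more were covered by MethylCap at 11 and by MethylMagnet, MethylCollector and MethylCollector Ultra at 0. In PC3, 1 MethylMagnet fragment and 1 MethylCollector Ultra fragment each covered 11 of the 13 CpGs at 10% or less. No kit covered any of the 5 at 25% or more. Below 10 reads, RRBS did measure the 7 CpGs of the MGMT upstream run printed above, next to the capture peak. They pooled to 92.9% in HCT15 (39 of 42 reads, 6 reads per CpG) and 8.93% in PC3 (5 of 56 reads, 8 per CpG). At 3 CpGs 317 to 299 bp upstream, the levels were 0% in HCT15 (0 of 18 reads) and 4.17% in PC3 (1 of 24 reads). DU145 had 10 CpGs with 7 reads each between −84 and −7, with 0 of 70 reads methylated. These reads come from very few molecules, and the values were chosen after the capture peak had been seen.

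Of 53 further repair genes, 48 had a level per line, with medians of 12.3% in HCT15, 13.1% in DU145 and 13.6% in PC3 over all CpGs, and 0.82%, 0.90% and 0.92% outside the recognition sites, over 46, 46 and 47 genes. At the gene records, XRCC1, a scaffold of base excision repair, and ERCC3, a helicase of nucleotide excision repair, were the genes with a level of 50% or more. XRCC1 was at 93.4%, 91.0% and 92.9% at its gene record, and at 11.5% in HCT15 and 11.6% in DU145 around its canonical 5′ end. Outside the recognition sites the XRCC1 gene record was at 95.7% in DU145 over 8 CpGs, with 4 such CpGs in HCT15 and 3 in PC3, under the 5 required for a level. ERCC3 was at 100% in DU145 over 7 CpGs, at 32.9% in HCT15 and at 25.1% in PC3 over 21 each. At the gene records ERCC3 gave the only called difference among these genes, DU145 being 50 points higher than PC3 over shared CpGs. Such a difference in either direction was called for 8.12% of promoters in that pair. Outside the recognition sites OGG1, a glycosylase that removes oxidised guanine, was also called, with a difference of −27.1 points between HCT15 and DU145, a call made for 1.76% of promoters with DU145 higher. Around its canonical 5′ end RAD52, a mediator of strand annealing, was 33.1 points higher in HCT15 than in DU145. The share of all promoters called around canonical 5′ ends is not given here, so this value is a description only. Around canonical 5′ ends, 2 of 50 further genes were at 50% or more in DU145, with levels not listed here.

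WRN was compared with 9094 protein-coding promoters that had at least 20 CpGs in each line, by the distance between their 3 pooled levels. The closest were WHRN (distance 3.08 points), RRAD, a small GTPase gene (3.76), and GRIK4, a glutamate receptor gene (4.53). WHRN, a scaffold gene of hearing and vision, was at 54.8% in HCT15, 25.8% in DU145 and 9.64% in PC3. The order of the lines was the same as for WRN, by the way these genes were chosen.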

How the data were processed

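For each RRBS library the authors deposited read counts at single CpGs, the methylated reads and the total, with the strands combined and no CpG under 6 reads. The RRBS aligner and enzymes are not given in the sources used here. For each MBD library the authors deposited a signal, the unscaled depth of non-duplicate fragments in runs along the genome, after mapping read pairs with Bowtie to hg19 (version not given). Fragments were rebuilt from rises in depth.

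CpGs with at least 10 reads within 1000 bp of a 5′ end (GENCODE 44lift37, GRCh37) were pooled per gene. Background values used promoters with at least 5 CpGs. Wilson and Poisson intervals are at the 95% level. Per-CpG Fisher tests and exact permutations over libraries were adjusted by Benjamini-Hochberg over all CpGs of a pair and over all promoters. Copies of the windows were sought with BLAST 2.17.0. Python 3.11.15, numpy 2.4.6, scipy 1.17.1 and pandas 2.3.3 were used. The scripts were tested on simulated data. Library totals and RRBS coverage stand in the results, and depth limits the MBD values.

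The 7 genes, the further repair genes and the tests were chosen with earlier results of these data known. The rule for named genes covers the 7 genes in full, further repair genes called or at 50% or more, and the 3 genes most like the widest-ranging member; single CpGs and stretches were chosen after their values were seen. Added after seeing the data were the measures outside CCGG and TCGA, canonical windows for the differences and the capture test, a scaled pseudocount and halved reads. Sequences were read from GRCh37.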

Additional observations from a re-analysis of the deposited data

How the results depend on the processing

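All RRBS levels and differences have 1 library per line, so their spread between cultures is unknown, and depth limits the capture values. No RRBS result reversed under any alternative. The capture test called no promoter in the main setting, so a reversal could not be counted for it. Within 500 bp of the 5′ end the promoters at 50% or more went from 1 to 0, the members called between HCT15 and DU145 from 2 to 1, and those between HCT15 and PC3 from 1 to 0, each through WRN. At a threshold of 50 points both counts became 0. At least 20 reads per CpG left 1 of the 2 members called between HCT15 and DU145. At a threshold of 10 points, 2 members, MGMT and WRN, were called between DU145 and PC3 in place of 0. CpGs called at 20 or more reads were 25 of the original 41 in number between HCT15 and DU145, 17 against 31 between HCT15 and PC3, and 9 against 19 between DU145 and PC3. At 50 points they were 24 between HCT15 and DU145 and 9 between DU145 and PC3.

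Leaving out the recognition sites moved 17 of 18 pooled levels by more than their interval, WRN in HCT15 being the exception. The mean over CpGs moved 12 of 18 and the canonical window 1. The capture test called 0 repair promoters and 0 of all promoters under each of 14 alternatives, including without each kit, without the kit as a block and with a scaled pseudocount. The permutation p of MGMT ranged from 0.00926 to 0.130 and its adjusted p from 0.218 to 0.492. Without 1 kit the smallest p is 0.00463, and a call would need 1865 promoters at it, against 336 there without MethylMiner, so these settings say little about stability. The cell lines were matched by kit in the capture test; for RRBS, no paired analysis was possible because each group has 1 library.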
